A study of Mus musculus with 6 samples.

Results

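The genes described here encode the ephrins and their Eph receptors, the Slits and their Robo receptors, and the netrins with the receptors Dcc and Unc5. They were taken by symbol from a table of gene expression in mouse neural progenitor cells, and 40 of its 22057 genes matched. Of these 40 genes, 35 had a mean normalized count of at least 10 over the 6 libraries and were tested, among 17068 such genes in all. The symbol pattern also took in Unc5cl, which shares part of its name with the netrin receptors but is not known as one, and it is kept apart below.

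The cells, which in brain give rise to neurons and glia, came from 3 mice labelled p53-null, that is without function of the tumour suppressor gene Trp53. The PDGFA group (n = 3) held cells of mice 62, 68 and 69 after 4 days in stem cell medium with platelet-derived growth factor A, given as 20 ug/ml in the labels. The EF group (n = 3), named as the control in the series design, held cells of those 3 mice kept for 4 days with EGF, FGF (the epidermal and fibroblast growth factors) and heparin. Both groups are labelled p53-null, so no library with intact p53 is in the comparison, and the labels give neither the deleted part of Trp53 nor the age of the mice. The media differ in more than 1 factor, and the labels do not say whether heparin was also in the PDGFA medium, so the share of each factor cannot be told apart. PDGFA libraries held 34812800 to 39601349 reads and EF libraries 27270246 to 30151469. Trp53 itself was read at 988.3 to 1122 normalized counts in PDGFA and 1672 to 2383 in EF.

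Ephrins are cell-surface ligands, and Eph receptors are the tyrosine kinases that bind them on neighbouring cells, usually to push cells or axons apart. Ephrin-As are held to the membrane by a lipid anchor and bind mainly EphA receptors, whereas ephrin-Bs span the membrane and bind mainly EphB receptors. EphA4 also binds ephrin-Bs. Slits are secreted proteins that repel growing axons and migrating precursors through Robo receptors. Netrins are secreted relatives of laminin that attract through Dcc and repel through Unc5 receptors, and netrin 1 is known to steer migrating oligodendrocyte precursors in the developing nervous system.

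The labelled cell type was checked against marker lists. EF 68 stood apart from the other EF libraries in the sums of oligodendrocyte precursor and astrocyte markers, and the results that rest on it are given with and without it. Of 10 neural stem and progenitor markers 5 were lower and 3 higher in PDGFA, and the summed level was 54390 to 57440 normalized counts in PDGFA and 95770 to 222200 in EF. Vim, an intermediate filament and the highest of these markers by mean, read 15760 to 21760 in PDGFA and 30330 to 95270 in EF, and Nes, another one, 1600 to 3420 in PDGFA and 21110 to 48050 in EF. All 10 markers of maturing oligodendrocytes were higher in PDGFA, with sums of 350600 to 423300 against 2711 to 4451 in EF, where Mog, a marker of low mean named for this, was at 0; Cnp, an enzyme of oligodendrocytes, read 70140 to 80710 in PDGFA and 2177 to 3149 in EF. Of 10 astrocyte markers 7 were higher (sums of 152500 to 236000 in PDGFA and 47430 to 84460 in EF), led by Gfap at 72520 to 107400 in PDGFA and 19.15 to 67.55 in EF, and of 10 oligodendrocyte precursor markers 4 were higher and 3 lower (188500 to 273100 in PDGFA and 162900 to 317000 in EF). Of 10 neuronal markers 9 were in the table and 7 were tested; 1 of these was higher (Dcx), and the sums were 29450 to 38970 in PDGFA and 25390 to 30770 in EF, mostly from Map2, which did not pass. Of 10 endothelial and pericyte markers 8 were in the table, with sums of 1280 to 1614 in PDGFA and 99.6 to 201.5 in EF, mostly from Pdgfrb and Kdr. Microglial markers were at 44.74 summed counts or fewer in every library. These shifts in cell markers ran beside every result below, and their part in it was not tested. In such bulk RNA, fewer cells of a type and less RNA per cell cannot be told apart.

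Promoter sequence is shown for the receptor and the ligand with the largest rise and the largest fall that had an entry in the RefSeq promoter table (build GRCm38.p6, the build of the deposited data): Unc5c at chr3:141465314-141465613, Epha2 at chr4:141300971-141301270, Slit3 at chr11:35121206-35121505 and Ntn4 at chr10:93640799-93641098, all on the + strand. Each window runs 5′ to 3′ from 250 bases before the annotated start to 50 bases after it. Capitals mark matches, on either strand, to 6 motifs: TGANTCA (AP-1), TGACGTCA (CRE), CCGGAAG (ETS), CAGCTG (an E-box), ACAAAG (SOX) and GGGCGG (SP).
Unc5c: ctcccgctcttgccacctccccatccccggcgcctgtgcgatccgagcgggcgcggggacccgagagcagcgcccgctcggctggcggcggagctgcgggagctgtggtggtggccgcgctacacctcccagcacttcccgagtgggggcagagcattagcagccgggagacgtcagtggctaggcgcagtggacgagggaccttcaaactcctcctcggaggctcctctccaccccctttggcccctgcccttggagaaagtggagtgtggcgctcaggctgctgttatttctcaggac
Epha2: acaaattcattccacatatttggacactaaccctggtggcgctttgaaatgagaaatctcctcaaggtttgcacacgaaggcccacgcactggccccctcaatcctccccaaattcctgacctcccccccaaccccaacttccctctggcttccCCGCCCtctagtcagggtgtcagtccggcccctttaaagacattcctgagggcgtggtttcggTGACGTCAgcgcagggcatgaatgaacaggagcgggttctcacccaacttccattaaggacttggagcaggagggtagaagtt
Slit3: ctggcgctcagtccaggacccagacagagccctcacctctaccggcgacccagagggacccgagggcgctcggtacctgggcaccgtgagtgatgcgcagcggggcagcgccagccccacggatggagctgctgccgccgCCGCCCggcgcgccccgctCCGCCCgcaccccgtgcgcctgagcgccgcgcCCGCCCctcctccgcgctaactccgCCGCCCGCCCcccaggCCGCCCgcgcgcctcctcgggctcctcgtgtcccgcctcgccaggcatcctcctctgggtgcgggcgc
Ntn4: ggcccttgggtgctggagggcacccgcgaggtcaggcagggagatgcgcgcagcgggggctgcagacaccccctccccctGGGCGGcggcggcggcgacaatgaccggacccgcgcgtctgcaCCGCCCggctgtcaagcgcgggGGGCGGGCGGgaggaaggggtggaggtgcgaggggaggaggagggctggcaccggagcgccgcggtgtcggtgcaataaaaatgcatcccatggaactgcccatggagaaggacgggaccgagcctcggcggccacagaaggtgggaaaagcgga

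Slit3, higher in PDGFA, held 6 SP matches, and Ntn4, lower in PDGFA, held 4; in each, 2 of them overlap. The Epha2 window held 1 match to the CRE letters, 33 bases before the start, which 1.79% of 32851 promoter windows contained, and 1 SP match. Unc5c held no match to any of the 6. Over all guidance genes, 35 had an entry (40 windows), and Dcc, Efnb3, Ntn1, Slit1 and Unc5d had none. SP matches stood in 67.5% of the 40 windows and in 35.7% of all windows, and their median GC content was 64.5%, against 52.7% over all windows. The AP-1 letters were in none of the 40 windows and in 7.81% of all windows, ETS in 2.5% of the 40 and 8.86% of all, the E-box in 12.5% of the 40 and 16.3% of all, and SOX in 7.5% of the 40 and 18.7% of all. A match describes letters in a window only, and the data do not show which start site was used.

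Of the 35 genes tested, 11 were higher and 6 lower in PDGFA than in EF, and 18 did not pass the test. That is 48.6% called, where 39.8% of all tested genes were called (21.8% higher and 18.0% lower). The excess over the background is small and is not read as a result about these genes. Their median log2 fold change was -0.07, against -0.01 over all tested genes, with values between -5.99 and 5.28. All 3 PDGFA libraries lay above all EF libraries for 12 of them and below for 9, together 21 of 35, where 55.5% of all tested genes did not overlap (29.2% above and 26.3% below). With edgeR 9 were higher and 7 lower (40.2% of all tested genes called, with 19.1% called lower), and with DESeq2 11 and 8 (45.1%, 23.1% and 22.0%). With the mouse as a block it was 10 and 7 (34.2%, 18.8% and 15.4%). Receptors (19 tested) had 7 higher and 2 lower, and the secreted or ephrin ligands (14 tested) had 3 higher and 3 lower. EphA receptors, Slits, Robos and netrin-Gs each held members called in both directions, as the plot of fold changes by family shows. Without both libraries of mouse 68, 7 were higher and 5 lower, while all genes called fell to 1945 higher and 1335 lower, against 3720 and 3076 with every library. Without EF 62, 10 were higher and 10 lower, with 4213 higher and 3848 lower over all genes.

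**Figure D1:**
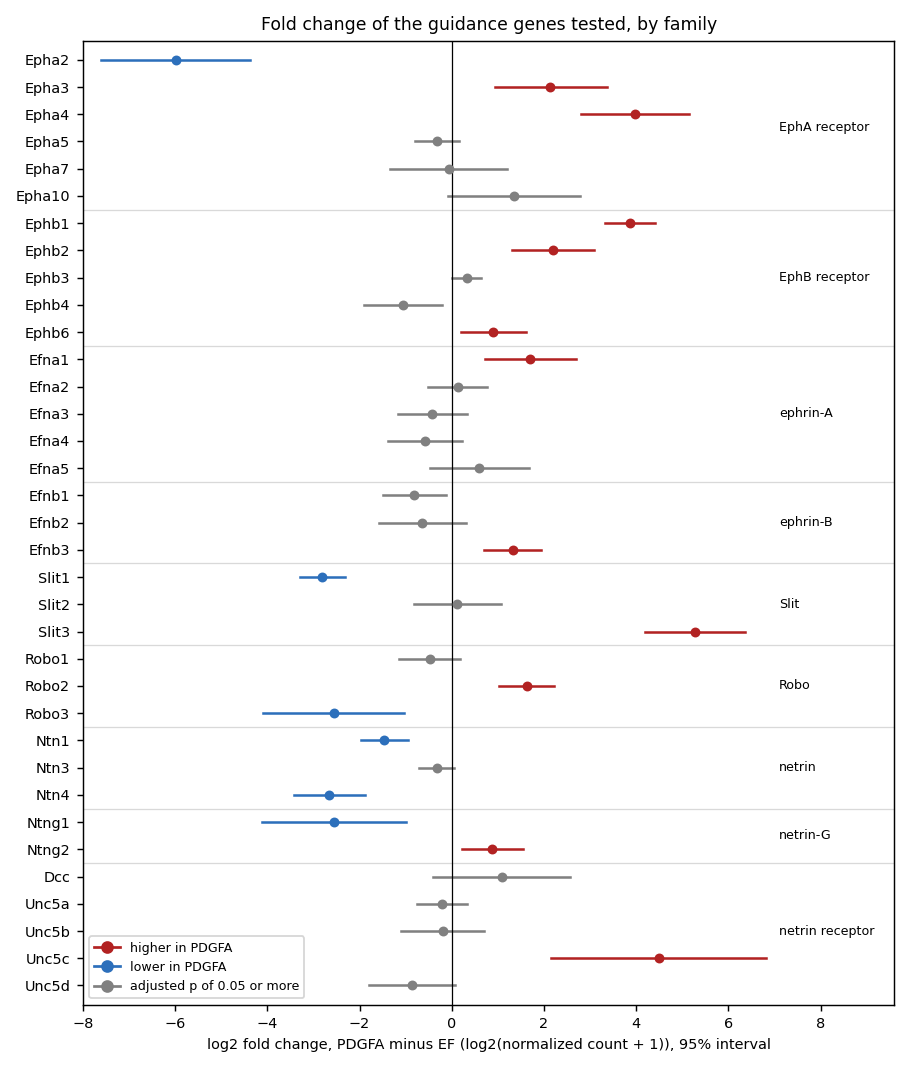
Log2 fold change of the 35 guidance genes tested (x axis, PDGFA minus EF, log2(normalized count + 1)), grouped by family from top to bottom. Points are estimates and lines 95% intervals from 3 libraries per group. Red marks the 11 genes higher in PDGFA, blue the 6 lower and grey the 18 that did not pass; Epha2 (-5.99) and Slit3 (5.28) lie at the ends.

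Of the 11 Eph receptors tested, 5 were higher and 1 lower in PDGFA, where 21.8% of all tested genes were higher and 18.0% lower. With so few genes, the count is not read as a result about the family. Ephb1, Epha4, Ephb2, Epha3 and Ephb6 were higher in PDGFA and Epha2 was lower, while Epha5, Epha7, Epha10, Ephb3 and Ephb4 did not pass. Ephb1 (GRCm38 chromosome 9, 101922128 to 102354693, minus strand), a kinase receptor for ephrin-Bs, read 4036, 5303 and 4418 normalized counts in PDGFA cells of mice 62, 68 and 69, and 340, 399.7 and 225 in EF cells of the same mice. Every PDGFA library stood above every EF library. The means were 4586 ± 650 in PDGFA and 321.6 ± 88.8 in EF (SD, n = 3 each), and the difference was 3.86 on the log2 scale (SE 0.23; limma, adjusted p = 3.13e-05).

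Epha4 (chromosome 1, 77367185 to 77515088, minus strand), the receptor that binds ephrins of both kinds, read 3395, 3410 and 2328 in PDGFA and 261.4, 331 and 79.26 in EF. The lowest PDGFA library was well above the highest EF library. The fold change was 3.97 on the log2 scale (SE 0.50, adjusted p = 0.000771), or 3.34 without EF 69, the lowest library. Ephb2 (chromosome 4, 136647539 to 136835988, minus strand), another ephrin-B receptor, read 2758, 2635 and 1974 in PDGFA and 290.2, 907.5 and 562.5 in EF, without overlap (log2 fold change 2.20, SE 0.38, adjusted p = 0.00362).

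Epha3 (chromosome 16, 63543534 to 63864175, minus strand), a receptor for ephrin-As, read 537.2, 244.4 and 130.8 in PDGFA and 78.53, 41.66 and 58.81 in EF. The PDGFA libraries differed among themselves, with mouse 62 highest, yet none reached down to the EF values (log2 fold change 2.14, SE 0.52, adjusted p = 0.0148; 0.115 without both libraries of mouse 68). Ephb6, an Eph family member without kinase activity, read 688.3, 883.2 and 667.5 in PDGFA and 408.9, 584.3 and 258.2 in EF. The log2 fold change of 0.90 (SE 0.30) had an adjusted p of 0.0479, just inside the threshold. The adjusted p was 0.0648 with edgeR, 0.101, 0.163 and 0.0963 without PDGFA 62, 68 or 69, and 0.0712 and 0.0767 without EF 62 or 69. It was also over 0.05 under both other scalings (0.0515 and 0.073) and without both libraries of mouse 68 (0.081).

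Epha2 (chromosome 4, 141301240 to 141329384, plus strand), an ephrin-A receptor known for high expression in many tumours, moved the other way. It read 21.22, 4.774 and 2.688 in PDGFA and 282.5, 628.2 and 675 in EF. Its mean was 9.56 ± 10.2 in PDGFA and 528.6 ± 214 in EF, and the fold change was -5.99 on the log2 scale (SE 0.69, adjusted p = 0.000541). This was the largest fall among the 35 genes. It ranged from -6.74, without PDGFA 62, to -4.81, with a pseudocount of 10 in place of 1, and passed under all 17 alternatives; the PDGFA libraries held 33 reads in all.

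Ephb4, a receptor of ephrin-B2 best known from veins, read 469.3, 635.9 and 845.8 in PDGFA and 901.2, 1143 and 2247 in EF. The groups did not overlap, and each mouse was lower in PDGFA, but the gene narrowly missed the threshold (log2 fold change -1.06, 95% interval -1.91 to -0.22, adjusted p = 0.0505). It passed under 8 of 17 alternatives, among them a block for mouse (adjusted p = 0.00716), edgeR (0.0433), DESeq2 (0.0106) and leaving out EF 62 (0.0235). Ephb3 read 3075, 3020 and 2963 in PDGFA and 2534, 2674 and 2108 in EF, a difference of 0.32 (95% interval 0.00 to 0.63, adjusted p = 0.103). Epha5, an axonal receptor for ephrin-As, read 2769, 2631 and 3002 in PDGFA and 3930, 4231 and 2567 in EF, with overlap (log2 fold change -0.32, adjusted p = 0.243; 0.0156 without EF 69, with -0.54). Epha10, a family member without kinase activity, read 56.34 to 115.4 in PDGFA and 16.62 to 81.06 in EF (log2 fold change 1.34, adjusted p = 0.12); without EF 68 it was 2.02 with adjusted p = 0.0149.

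Levels were compared between receptors per kilobase of exon, with the exons of all annotated transcripts of a gene joined. The joined length can exceed that of the transcripts present, so ranks between genes depend on the annotation too. In PDGFA, Ephb1 made up 29.1% ± 2.86 of the summed Eph level per kilobase, Ephb3 20.3% ± 1.33 and Epha4 16.7% ± 2.63 (SD, n = 3). In EF, Ephb1 made up 3.66% ± 0.989, Ephb3 29.4% ± 4.63 and Epha4 2.21% ± 1.25. Ephb3 had the highest mean share in EF. By count, Epha5 was above it there (mean 3576, against 2439 for Ephb3), over 16.739 kb of exon against 6.641 kb. Ephb4 held 6.29% ± 2.16 in PDGFA and 24.4% ± 11.9 in EF. Epha5 held 7.48% ± 1.04 in PDGFA and 17.1% ± 4.59 in EF, and was above Ephb4 in EF 62 and EF 68 but not in EF 69. Epha2 accounted for 0.091% ± 0.0976 of the Eph level in PDGFA and 8.81% ± 3.06 in EF. Ephb6 kept about the same share, 8.76% ± 0.79 in PDGFA and 8.74% ± 2.99 in EF. In PDGFA the first and second places, Ephb1 and Ephb3, did not overlap between libraries; in EF the shares of Ephb3 and Ephb4 did, as did those of Ephb4 and Epha5.

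**Figure D2:**
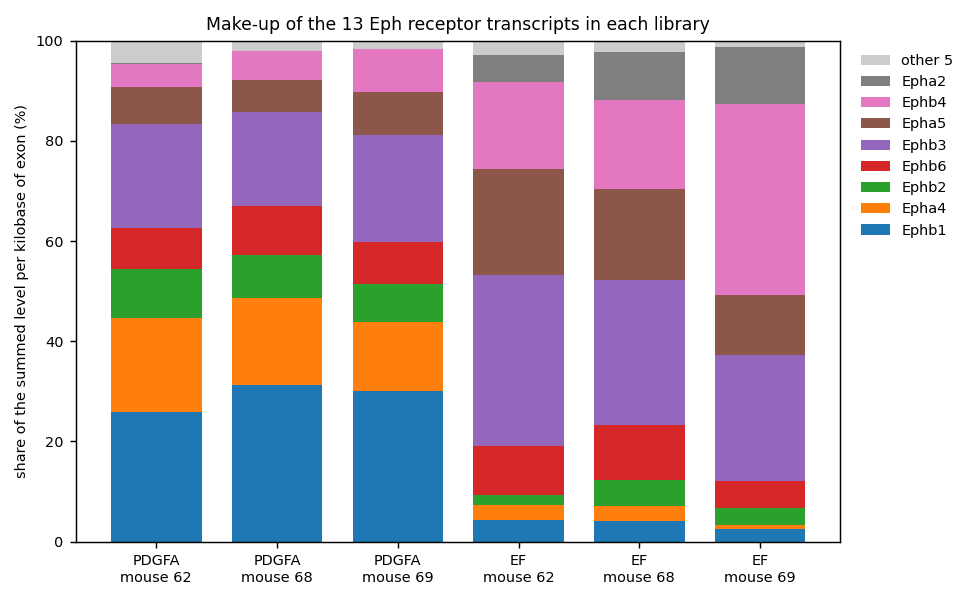
Share of each Eph receptor (y axis, % of the summed normalized count per kilobase of exon over 13 Eph receptors) in each library (x axis). Ephb1 and Epha4 fill the lower part of the 3 PDGFA bars (29.1% and 16.7% on average) and little of the EF bars (3.66% and 2.21%), whereas Ephb4 and Epha2 take more of the EF bars.

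Among the ephrins, Efna1 and Efnb3 were higher in PDGFA and the other 6 did not pass. Efnb3 (chromosome 11, 69554092 to 69560205, minus strand), a transmembrane ligand of EphB receptors, read 393, 532.8 and 744.5 in PDGFA and 198.2, 206 and 244.2 in EF. Each PDGFA library was above each EF library (log2 fold change 1.32, SE 0.26, adjusted p = 0.00669; 0.0808 without both libraries of mouse 68). Efna1 (chromosome 3, 89271733 to 89281142, minus strand), a lipid-anchored ligand of Epha2 and other EphA receptors, read 69.6, 122.2 and 123.6 in PDGFA and 19.15, 45.04 and 33.24 in EF. It passed, at 1.70 on the log2 scale (SE 0.42, adjusted p = 0.0165), and did not pass without PDGFA 68 (0.0773) or PDGFA 69 (0.0684), or without both libraries of mouse 68 (0.088). Efna1 was thus higher in the medium in which Epha2, one of its receptors, was lower.

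Efna3 and Efna4 lie within 52.2 kb of Efna1 on chromosome 3 and did not move with it. Efna3 read 31.4 to 41.06 in PDGFA and 41.18 to 57.53 in EF, with a log2 fold change of -0.42 (95% interval -1.16 to 0.33). Efna4 read 80.63 to 138 in PDGFA and 118.7 to 235.2 in EF, with -0.58 (95% interval -1.39 to 0.23). In each of these 2 genes, over 10% of the exon length overlaps a gene on the opposite strand (14.1% and 10.5%), whose reads were not separated.

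Efnb1, an X-linked ephrin-B, read 697.7, 889 and 525 in PDGFA and 864.8, 1189 and 1718 in EF, lower in each mouse but with overlap. Its log2 fold change was -0.81 (adjusted p = 0.0605), and it passed without EF 62 (0.0203), with DESeq2 (0.0237) and with scaling to library totals (0.0309). Efnb2, a ligand of Ephb4, read 265.2 to 716.1 in PDGFA and 600.4 to 1088 in EF (-0.64, 95% interval -1.57 to 0.30). Efna2 read 397.2 to 435.4 in PDGFA and 246.1 to 474.3 in EF (0.13, 95% interval -0.51 to 0.77), and Efna5 read 39.04 to 97.4 in PDGFA and 26.81 to 49.86 in EF (0.60, 95% interval -0.48 to 1.68). Per kilobase, Efna2 was the highest ephrin-A in both media, at 193 ± 9.65 in PDGFA and 184 ± 59.5 in EF, and Efnb1 had the highest mean of the ephrin-Bs, at 204 ± 52.7 in PDGFA and 364 ± 125 in EF.

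Slit1 was lower in PDGFA and Slit3 higher, and Slit2 did not pass. Slit1 (chromosome 19, 41600257 to 41743665, minus strand), a secreted repellent, read 417.6, 371.4 and 326.1 in PDGFA and 1992, 3267 and 2694 in EF. Its mean was 371.7 ± 45.7 in PDGFA and 2651 ± 639 in EF, with no overlap (log2 fold change -2.81, SE 0.21, adjusted p = 7.49e-05). The call held under all 17 alternatives run, with fold changes from -3.00 to -2.64.

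Slit3 (chromosome 11, 35121224 to 35708507, plus strand) read 64.5, 49.65 and 72.57 in PDGFA and 0.958, 1.13 and 0 in EF. The 3 EF libraries held 2 reads together and the PDGFA libraries 209, a ratio of 84.9 (95% counting interval 23.2 to 706, exact binomial). The log2 fold change was 5.28 (adjusted p = 0.000152), and it was 2.74 with a pseudocount of 10 in place of 1. Slit2, the third family member, read 86.01 to 167.1 in PDGFA and 70.31 to 170 in EF (0.12, 95% interval -0.83 to 1.07). Per kilobase, Slit1 was the highest Slit in both media, with 80.6% ± 2.18 of the summed Slit level in PDGFA and 99.0% ± 0.361 in EF.

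Robo2 was higher and Robo3 lower in PDGFA, and Robo1 did not pass. Robo2 (chromosome 16, 73891839 to 74411825, minus strand), a Slit receptor, read 1349, 1724 and 2126 in PDGFA and 531.5, 753.2 and 423.2 in EF. Every PDGFA value was above every EF value (log2 fold change 1.62, SE 0.26, adjusted p = 0.00233). Its neighbour Robo1, 846 kb away with no protein-coding gene between them, read 1209, 1153 and 1578 in PDGFA and 1678, 2763 and 1290 in EF, with overlap (-0.48, 95% interval -1.14 to 0.18, adjusted p = 0.213). The balance between the 2 receptors was tight within each medium. Robo2 took 55.9% ± 3.64 of the summed Robo level per kilobase in PDGFA and 22.4% ± 1.57 in EF, and Robo1 43.9% ± 3.65 in PDGFA and 75.3% ± 2.94 in EF.

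Robo3, a divergent Robo known from axons that cross the midline, was scarce, at 0.849, 2.87 and 1.79 in PDGFA and 37.35, 11.26 and 7.67 in EF. It was lower in each mouse (log2 fold change -2.56, adjusted p = 0.0182), with mouse 62 highest in EF. The fold change was -1.93 without EF 62, and the call was lost without PDGFA 62 (0.0651) or PDGFA 69 (0.0548), or without both libraries of mouse 68 (0.0793). Robo3 had 6 reads in PDGFA and 55 in EF, and over 16 alternatives its fold change ranged from -3.39 to -1.14.

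Of the 3 secreted netrins tested, Ntn1 and Ntn4 were lower in PDGFA and Ntn3 did not pass, though it was lower in each mouse. Ntn1 (chromosome 11, 68209364 to 68400823, minus strand), the classical attractant of Dcc-bearing axons, had the highest mean count of all 40 genes. It read 3737, 3941 and 3257 in PDGFA and 7192, 11830 and 11930 in EF, with no overlap (log2 fold change -1.47, SE 0.22, adjusted p = 0.00173). Ntn4 (chromosome 10, 93640681 to 93747207, plus strand), a netrin of basement membranes, read 364.1, 595.8 and 792.9 in PDGFA and 2975, 2883 and 5042 in EF. The groups were far apart (log2 fold change -2.66, SE 0.33, adjusted p = 0.000711). Both calls held under all 17 alternatives run. Ntn3 read 498.2, 440.2 and 407.7 in PDGFA and 563.1, 581 and 545.9 in EF (-0.33, 95% interval -0.71 to 0.05, adjusted p = 0.143).

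Netrin-Gs are anchored to the membrane and bind partners on other neurons in place of Dcc. Ntng1 read 58.56, 65.89 and 12.54 in PDGFA and 230.8, 130.6 and 358 in EF, lower in PDGFA without overlap (log2 fold change -2.55, SE 0.67, adjusted p = 0.0198). It was -1.81 without PDGFA 69, and without EF 69 it did not pass (-2.21, adjusted p = 0.0597), nor with edgeR and the mouse as a block (0.0533). Ntng2 read 428.6, 386.7 and 491 in PDGFA and 355.3, 201.5 and 182.8 in EF. It passed barely (log2 fold change 0.88, SE 0.29, adjusted p = 0.0438). With the mouse as a block it did not pass (0.0576), nor with edgeR (0.0669), nor with scaling to library totals (0.0873), nor without any single library but EF 62 (0.0961 to 0.142), nor without both libraries of mouse 68 (0.213). In Ntng2, 14% of the exon length overlaps another gene on the same strand.

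Among the netrin receptors, Unc5c and Dcc were uneven in EF, with EF 68 apart from the other EF libraries. Unc5c (chromosome 3, 141465216 to 141834924, plus strand), a repulsive netrin receptor, read 1305, 1146 and 1436 in PDGFA and 22.98, 367 and 20.45 in EF. EF cells of mouse 68 had the highest EF level, still below all PDGFA libraries. The log2 fold change was 4.49 (95% interval 2.16 to 6.82, adjusted p = 0.0102). It was 5.83 without EF 68 (adjusted p = 6.1e-05), 3.86 without EF 62 and 3.78 without EF 69. Dcc, the attractive receptor, read 3451, 2679 and 1242 in PDGFA and 525.8, 2895 and 796.5 in EF, so that the groups overlapped through mouse 68. It did not pass (1.08, 95% interval -0.41 to 2.57, adjusted p = 0.217), and without EF 68 it did (1.80, adjusted p = 0.0234).

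In the same EF library, Pdgfra (a marker singled out after its values were seen), the receptor of platelet-derived growth factor A and a precursor marker, read 14130, against 860.9 in EF 62 and 533.1 in EF 69. The sum of the 10 precursor markers was 317000 in EF 68, 168900 in EF 62 and 162900 in EF 69. Of these, Ptprz1 alone gave 165000, 88410 and 69390. EF 68 was also highest in the astrocyte sum (84460, against 47430 in EF 62 and 48900 in EF 69), where Slc1a3 gave 52930, 31060 and 28050. The same held for the maturing oligodendrocyte sum (4451, against 2711 in EF 62 and 3160 in EF 69), mostly from Cnp. Not every marker followed its sum: Olig2 (34880), Aldh1l1 (11990) and Bcas1 (554.8) were highest in EF 69, against 33980, 7946 and 534.8 in EF 68. EF 68 was not highest in the stem and progenitor or the neuronal sum. The part of these markers in the Dcc and Unc5c values was not tested.

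The other Unc5 receptors did not pass. Unc5b, which is also known from blood vessels, read 1142, 1217 and 1563 in PDGFA and 783.4, 2398 and 1764 in EF (-0.20, adjusted p = 0.704). Its sign turned without EF 68 (0.14), and without EF 62 it was called lower (-0.67, adjusted p = 0.0351). Unc5a read 472.2 to 687.5 in PDGFA and 520 to 828.4 in EF (-0.22, 95% interval -0.76 to 0.32). Unc5d read 21.22 to 39.15 in PDGFA and 35.43 to 61.92 in EF, lower in each mouse (-0.86, adjusted p = 0.124; 0.0455 without EF 62). Epha7, an ephrin-A receptor outside this family, also did not pass, at 58.24 to 191.8 in PDGFA and 65.2 to 186.7 in EF (-0.07, 95% interval -1.34 to 1.20).

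**Figure D3:**
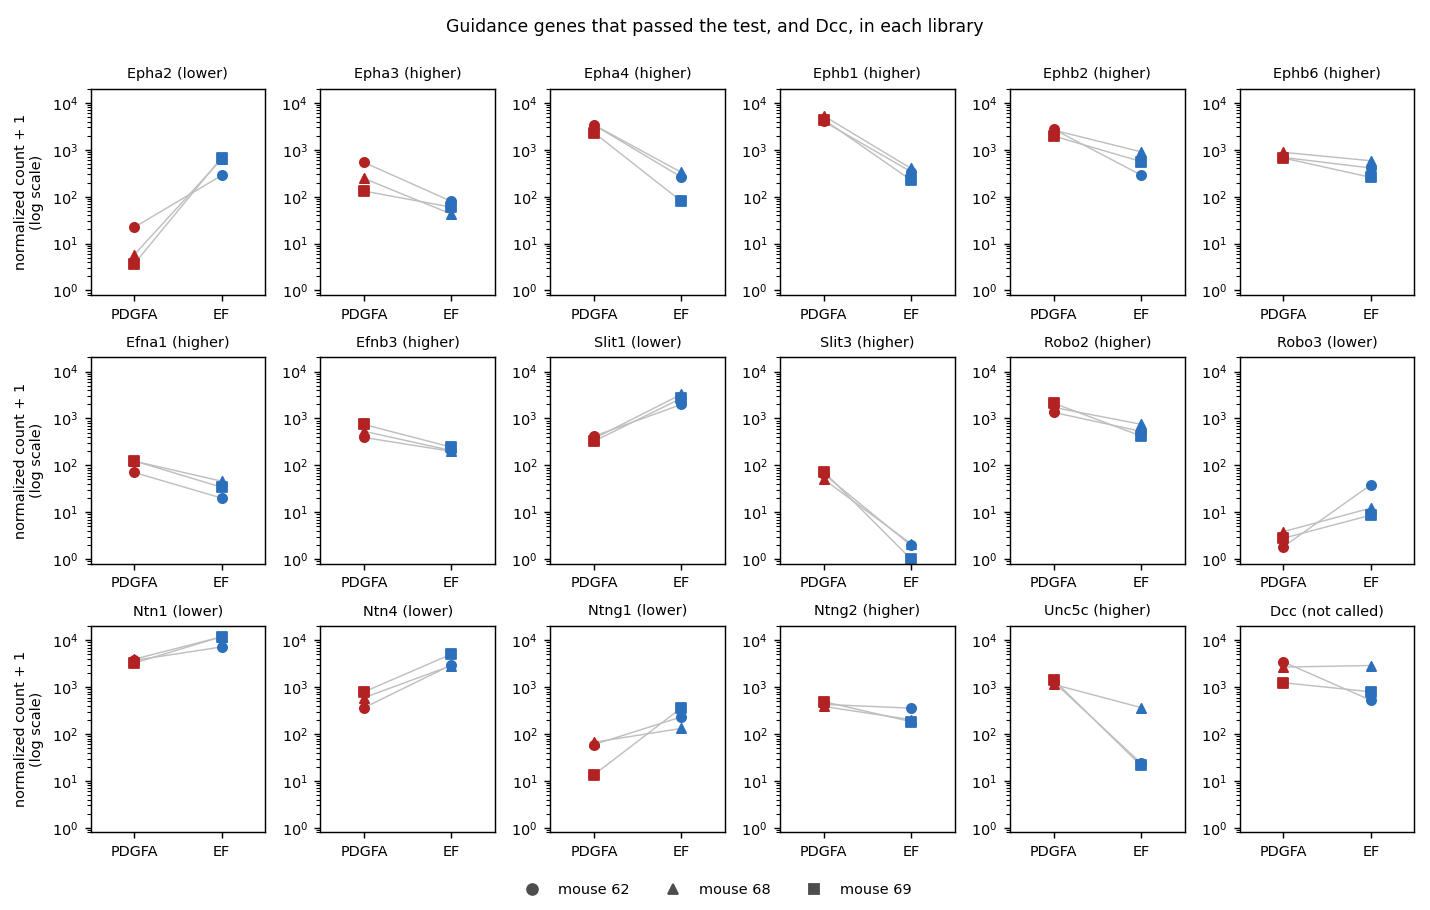
Normalized count + 1 (y axis, log scale) in PDGFA (left, red) and EF (right, blue) for the 17 guidance genes that passed the test and for Dcc, which did not. Each point is a library, the shape gives the mouse and grey lines join libraries of a mouse; in Unc5c and Dcc the EF library of mouse 68 (367 and 2895) lies apart from the other EF points.

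Too scarce to test were 5 of the 40 genes: Epha1, Epha8, Robo4, Ntn5 and Unc5cl. Epha1 read 3.40 to 8.06 in PDGFA and 0 to 1.28 in EF, or 18 reads against 2, a ratio of 7.31 (95% counting interval 1.75 to 65). Unc5cl read 1.79 to 12.73 in PDGFA and 0 to 1.92 in EF, or 25 reads against 2, a ratio of 10.2 (2.53 to 88.5). Robo4, known from blood vessels and a direct neighbour of Robo3, had 3 reads in PDGFA and 9 in EF, all 9 from mouse 62. Epha8 read 0.896 to 5.09 in PDGFA and 1.13 to 2.87 in EF, and Ntn5 read 0 to 5.09 in PDGFA and 3.84 to 9.58 in EF.

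Summed by family and per kilobase of exon, netrins and Slits were lower in PDGFA and Eph receptors higher. Slit1 alone made up 99% of the Slit sum in EF, and Ntn1 and Ntn4 60.1% and 35.5% of the netrin sum. Single members went against their family sum, with Slit3 higher and Epha2 lower in PDGFA. The netrins summed to 826 ± 42.1 in PDGFA and 2730 ± 652 in EF, a ratio of 0.303, and the Slits to 77.8 ± 7.52 in PDGFA and 452 ± 109 in EF, a ratio of 0.172. EphB receptors summed to 1640 ± 132 in PDGFA and 879 ± 107 in EF (1.87), and EphA receptors to 609 ± 95.9 in PDGFA and 381 ± 70.1 in EF (1.60). For these 4 families the libraries of the 2 media did not overlap, as was the case for 55.5% of all tested genes taken singly. The other sums did overlap: ephrin-As at 350 ± 46.1 in PDGFA and 337 ± 102 in EF, ephrin-Bs at 455 ± 64.3 in PDGFA and 546 ± 170 in EF, and Robos at 182 ± 35 in PDGFA and 152 ± 55.6 in EF. Netrin-Gs summed to 115 ± 9.83 in PDGFA and 90.9 ± 25.4 in EF, and Dcc and the Unc5 receptors together to 606 ± 72.4 in PDGFA and 546 ± 250 in EF. These sums are descriptions with no test.

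**Figure D4:**
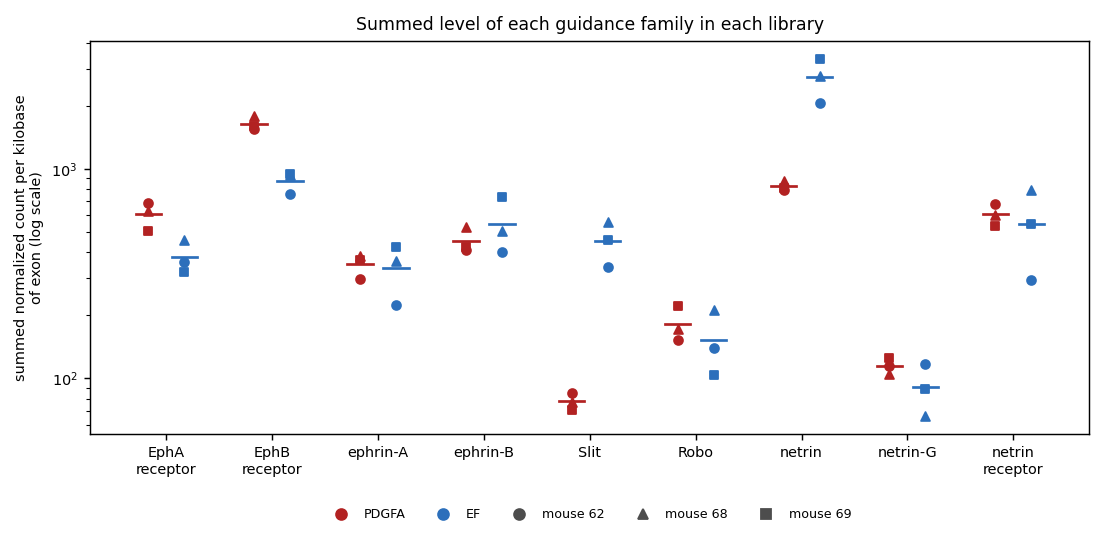
Summed normalized count per kilobase of exon (y axis, log scale) of each guidance family (x axis) in PDGFA (red, left) and EF (blue, right). Points are libraries, with the mouse by shape, and bars are means; netrins (826 in PDGFA, 2730 in EF) and Slits (77.8 in PDGFA, 452 in EF) lie lower in PDGFA, and both Eph receptor families higher.

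The partners of these ligands and receptors also moved both ways. Of 83 listed partner genes 82 were tested, and 24 were higher and 13 lower in PDGFA (45.1% called, against 39.8% of all genes), with a median log2 fold change of 0.15. Neither this share nor the counts per list below are read as a result about these genes. Among 37 tested genes of Eph and ephrin signalling, 12 were higher and 7 lower (51.4% called). Chn2, a chimaerin that turns off the GTPase Rac, averaged 15330 ± 1870 in PDGFA and 1793 ± 469 in EF (log2 fold change 3.12, SE 0.22, adjusted p = 5.69e-05). Ngef, the exchange factor ephexin that Epha4 acts through, averaged 900.3 ± 238 in PDGFA and 60.7 ± 13.1 in EF, and Anks1, an adaptor of Eph receptors, 4793 ± 143 in PDGFA and 1736 ± 257 in EF. Arhgef16, of the same family as ephexin, had 289 reads in PDGFA and 1 in EF, a ratio of 235 (95% counting interval 41.8 to 9300).

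Vav3, an exchange factor recruited by Eph receptors, led the genes that were lower, at 845.7 ± 89.6 in PDGFA and 7519 ± 2230 in EF (log2 fold change -3.12, SE 0.22). Chn1, the chimaerin that Epha4 uses in motor circuits, was also lower, at 528.5 ± 33.9 in PDGFA and 1395 ± 467 in EF (-1.34), so the 2 chimaerins moved in opposite directions. Grip1, a scaffold that binds ephrin-Bs, had a log2 fold change of -1.27 and Cbl, a ubiquitin ligase, of -0.76. The Cbl call was lost without both libraries of mouse 68 (adjusted p = 0.0698).

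Among 21 genes of Slit and Robo signalling 2 were higher and 4 lower, which is 28.6% called and below the 39.8% over all genes. Of the srGAPs, which bind Robo receptors, Srgap3 averaged 9970 ± 614 in PDGFA and 3925 ± 800 in EF (1.36, adjusted p = 0.000759). Srgap1 averaged 2384 ± 675 in PDGFA and 1040 ± 392 in EF (1.24, adjusted p = 0.0231), and was not called without PDGFA 62 (0.0811) or PDGFA 68 (0.0743), or without both libraries of mouse 68 (0.0624). Srgap2 went the other way, at 4132 ± 220 in PDGFA and 16960 ± 2600 in EF (-2.03, SE 0.16). Sdc3, a heparan sulphate proteoglycan, averaged 8429 ± 42.5 in PDGFA and 33290 ± 11900 in EF (-1.92). Vasp, an actin regulator, had a log2 fold change of -1.01. Pak1, a kinase downstream of Rac, had -0.63 (adjusted p = 0.0338). Pak1 did not pass once mouse was a block (0.0626) nor without any single library but EF 62 (0.0581 to 0.118), nor without both libraries of mouse 68 (0.23).

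Among 24 genes of netrin signalling 10 were higher and 2 lower, which is 50% called, against 39.8% of all genes (21.8% higher and 18.0% lower). Rgma, a ligand of the Dcc relative neogenin, averaged 12880 ± 981 in PDGFA and 2888 ± 499 in EF (2.17, SE 0.16). Dapk1, a death-associated kinase that works with Unc5b, averaged 2384 ± 91.2 in PDGFA and 366.3 ± 52.4 in EF (2.71). Ezr, a membrane-to-actin linker, averaged 3993 ± 782 in PDGFA and 488.3 ± 10.1 in EF (3.01). Lrrc4, the binding partner of netrin-G2, averaged 3828 ± 222 in PDGFA and 1222 ± 426 in EF (1.70, adjusted p = 0.00125). Dock1, an exchange factor for Rac, was lower, at 4719 ± 606 in PDGFA and 9668 ± 810 in EF (-1.04). Siah1b, a ubiquitin ligase, averaged 177.5 ± 18.5 in PDGFA and 370.8 ± 135 in EF, lower by the test (adjusted p = 0.0309) but not once mouse was a block (0.0518) or without any single library but EF 62 (0.056 to 0.103), or without both libraries of mouse 68 (0.193).

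Dscaml1, a relative of the netrin receptor Dscam singled out after its values were seen, shared the uneven EF levels of Dcc and Unc5c. It read 7918, 6449 and 5359 in PDGFA and 117.8, 1217 and 23.01 in EF, with mouse 68 highest in EF. The log2 fold change was 5.42 (adjusted p = 0.0105), 6.93 without EF 68 and 4.09 without EF 69. In EF 62, 68 and 69, Dscam read 1443, 6291 and 1595, Lrrc4c 412.7, 1887 and 531.8, and Anks1b 231.8, 1463 and 195.6. Dscam did not pass. Lrrc4c (1.69) and Anks1b (2.44) were called higher, with 2.36 and 3.37 without EF 68. They did not pass with edgeR (adjusted p = 0.0857 and 0.0901) and did with DESeq2 (0.0255 and 0.0178).

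**Figure D5:**
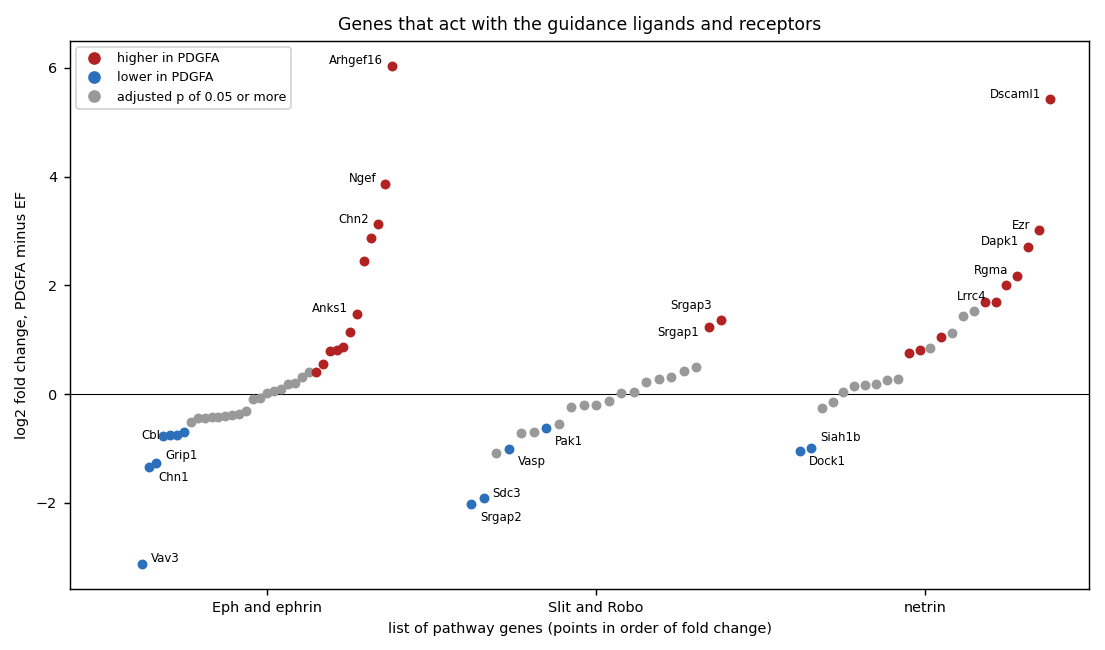
Log2 fold change (y axis, PDGFA minus EF) of the 82 tested partner genes, each list in order of fold change along the x axis. Red points are higher in PDGFA (24), blue lower (13) and grey did not pass. Gene names are given for the genes described except Dscam, Lrrc4c and Anks1b, with Arhgef16 (6.04) highest and Vav3 (-3.12) lowest.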

How the data were processed

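Per the labels' protocols, libraries came from polyadenylated RNA and the NEBNext kit E7770, which does not mark strand, so antisense reads were not separated. What the authors deposited is 1 table of normalized counts (unit: signal), each library's read counts scaled by its own size factor. The submitters' processing notes name FastQC, STAR, DESeq2 and mm10 (GRCm38); for versions, aligner settings and annotation: not given in the sources used here. Dividing a library by its lowest value above 0 gave whole reads within 0.001 for 100% of values (size factors 0.782 to 1.18). The lowest total of a gene was 10 reads over the 6 libraries. No column of values was left unused.

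Genes with a mean of at least 10 were fitted on log2(normalized count + 1) by limma 3.58.1 in R 4.3.3 (lmFit, eBayes with trend), PDGFA against EF without a mouse term. Tests were two-sided, and p-values were Benjamini-Hochberg adjusted over 17068 genes, with a threshold of 0.05. Adjusted p-values are from this fit unless another tool is named. On this scale the change of genes with few reads comes out too small. As alternatives, edgeR 4.0.16 (quasi-likelihood) and DESeq2 1.42.0 took the recovered reads, and limma was rerun with TMM or library-total scaling, pseudocounts of 0.5 and 10, no filter or a mean of 50, a mouse block, and libraries left out. Because each of the 3 mice gave a library to both groups, the mouse numbers pair the libraries; their deviations from the group means correlated at -0.091, 0.11 and -0.11 for mice 62, 68 and 69. Levels per kilobase used the union of GENCODE M21 exons (GRCm38), which held all 40 symbols; coordinates are from there too. Counting intervals cover counting error only. Libraries of a group differed by far more than counting noise (chi-square per degree of freedom 20 to 140). The spread was wider in EF, with a median SD of log2 values of 0.38, against 0.172 in PDGFA. The limma fit used 1 variance per gene over both groups, so its SEs and intervals assume equal spread.

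Guidance genes, partner lists, markers, motifs and tests were chosen with earlier results of these data known. Every library's value is given for each called guidance gene and for uncalled ones with a mean of at least 1000. Partner genes are the called ones with the smallest p, up to 4 per direction and list, except Dscaml1, Dscam, Lrrc4c and Anks1b. Markers named are among the 3 of highest mean in their list, except Mog, Pdgfra, Olig2, Aldh1l1 and Bcas1. All these exceptions were named after their values were seen. On reads simulated for PDGFA against EF over 17068 genes, limma recovered 84% of 100 genes changed 4-fold and 29% of 100 changed 2-fold. It also called 11 unchanged genes. The changed genes were drawn only from genes with EF means well above the filter, so these shares do not cover scarce genes. Both groups were simulated with the same dispersion for each gene. No other genes were changed there, whereas 39.8% of all tested genes were called in the data. The adjustment was thus stricter in the simulation, and these shares do not give the power of the real comparison.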

Additional observations from a re-analysis of the deposited data

How the results depend on the processing

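The calls of Ephb1, Epha4, Ephb2, Epha2, Slit1, Slit3, Robo2, Ntn1, Ntn4 and Unc5c kept their direction and their side of the threshold under every alternative run on them. Over the libraries left out in turn, the guidance genes called higher were 8 to 12 and those called lower 5 to 10, against 11 and 6. The partner genes called lower were 10 to 21, against 13, and all genes called were 2306 to 4213 higher and 1855 to 3848 lower, against 3720 and 3076. Without both libraries of mouse 68, 7 guidance genes were higher, 8 partner genes lower, and 1945 genes were higher and 1335 lower in all. That fit held fewer libraries, and the cause of the drop was not tested. With DESeq2, 21 partner genes were lower, as without EF 62. With the mouse as a replicate block 10 guidance genes were higher and 7 lower, and 25 partner genes were higher and 11 lower; among the guidance genes it changed the calls of Ntng2 and Ephb4 and no other. Fold changes that turned sign were of genes that did not pass: Efna2 without EF 62 (-0.18; libraries left out in turn gave -0.18 to 0.30), Epha7 without PDGFA 69 (0.41), EF 62 (0.24) or EF 68 (0.06), range -0.51 to 0.41, Slit2 without PDGFA 68 (-0.14) or EF 69 (-0.18), range -0.18 to 0.45, and Unc5b without EF 68 (0.14) or without both libraries of mouse 68 (0.18), range -0.67 to 0.14. Scaling by library totals moved the median of all genes by -0.062 (log2), and TMM scaling by 0.005. With no filter 13 guidance genes were higher, the 2 added being Epha1 and Unc5cl. Depth limits Slit3, Robo3 and the 5 untested genes, whose lower group held few reads.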
